A study of Homo sapiens with 8 samples.

Results

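The genes described here encode enzymes that reduce nitro groups or that oxidize or reduce aldehydes and ketones. They were the flavin reductases POR, NQO1 and CYB5R3, the molybdenum enzyme XDH, the aldehyde dehydrogenases ALDH2, ALDH1A1 and ALDH1A3, and the aldo-keto reductases AKR1B10, AKR1C1 and AKR1C3. All probe sets whose platform annotation names one of these 10 genes were taken, whatever their values, which gave 20 of the 54675 probe sets on the array. Of these, 19 were annotated to 1 gene and 1 was annotated to both AKR1C1 and its close relative AKR1C2, and the array named 19775 genes in all. The cells were 293T, derived from human embryonic kidney and expressing large T antigen of SV40. Cells had received EerI, an inhibitor of endoplasmic reticulum-associated degradation, CBU-028, a further compound of the study, or 5-NA (5-nitrofuryl-acrolein), each at 10 µM for 10 h, and control cells were the fourth group. The study describes EerI as a nitrofuran-containing domain joined to an aromatic domain, and 5-NA as the nitrofuran-containing part without the aromatic one. It chose CBU-028 from a library of compounds that kept this nitrofuran-containing domain and differed in a benzene-containing group. Each group had 2 arrays, and the arrays compare how strongly the compounds shift RNA levels at 1 dose and 1 time. The labels speak of duplicates and the legend of a supplementary gene list of a biological replicate, with no word on how separate the cultures were, so the p-values measure the spread between these samples, part of which may be technical.

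Nitrofurans are prodrugs in many settings: the nitro group has to gain electrons before it forms reactive products. POR and CYB5R3 pass electrons singly, NQO1 passes them in pairs, and XDH can act as a nitroreductase when oxygen is scarce. ALDH2 can turn over 5-nitrofurans, and aldehyde dehydrogenases and aldo-keto reductases clear unsaturated aldehydes, the class of compound to which acroleins belong. NQO1 and several aldo-keto reductase genes are textbook targets of NRF2, the transcription factor that electrophiles release from KEAP1, and NQO1 is also a target of the aryl hydrocarbon receptor AHR.

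The values were log2 signals of the robust multi-array average, so a difference of 1 is a 2-fold change. The authors brought all arrays to a common distribution, so a change shared by all RNAs cannot be seen, and the array medians lay between 6.89 and 6.93. The labels do not state a solvent for the control cells. The titles of the 5-NA samples carry the experiment number that a supplementary list gives to another compound, CBU-029, whereas all their other labels name 5-NA. The 5 markers of 293T cells (VIM, KRT8, KRT18, NEFL and NEFM) had means between 9.44 and 13.7 over the arrays, while 5 B-cell markers had means of 4.63 to 7.73 and 7 markers of other cell types had means of 5.11 to 9.15. The summed log2 value of the 5 markers of 293T cells was 59.07 to 59.13 with EerI, 58.31 to 58.42 with CBU-028 and 58.89 to 58.94 with 5-NA, against 59.02 to 59.27 in control cells. The 3' minus 5' difference of ACTB, a sign of RNA integrity, lay between 0.0743 and 0.196 on 7 arrays and was 0.363 on 5-NA replicate 2. A 28S ribosomal RNA probe set (AFFX-M27830_5_at) was 1.39 higher on the log2 scale with 5-NA than in control cells (95% interval 1.18 to 1.59, limma adjusted p = 8.86e-05) and 0.36 higher with CBU-028 (limma adjusted p = 0.0377). The middle probe set of the same RNA was 1.22 higher with 5-NA (limma adjusted p = 0.000354), and its 3' probe set differed by 0.15 (limma adjusted p = 0.305). The part of these differences in the results was not tested.

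None of the members moved by 2-fold. With EerI, 0 of 20 member probe sets passed limma's test at an adjusted p under 0.05, where 0.527% of all probe sets did, although 6 of the 20 had an unadjusted p under 0.05 and 5 did by the ANOVA that the methods name. With CBU-028, 3 member probe sets rose and 1 fell, which is 20% of the members, against a background of 9.67% (4.40% higher and 5.27% lower). The rises were those of XDH and of NQO1, the latter at 2 probe sets, and the fall was that of ALDH1A3. This count thus rests on few genes. The other XDH probe set (-0.01) and the other ALDH1A3 probe set (0.30) did not pass with CBU-028 (limma adjusted p = 0.978 and 0.205). With 5-NA, 4 rose and 0 fell, again 20% of the members, against a background of 15.2% (7.32% higher and 7.90% lower). Of these 4 probe sets, 3 belong to NQO1 and 1 to POR, so the count stands for 2 genes, and the share is near the background. The members' median log2 change was 0.01 with EerI, 0.01 with CBU-028 and 0.02 with 5-NA, where the medians over all probe sets were 0.01, 0.00 and -0.01. The 95% intervals of single member changes reached 0.172 to 0.333 on the log2 scale to either side, and the number of arrays limits this precision. Where arrays are said below to lie above or below those of another group, this describes 2 arrays against 2 and is not a test.

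**Figure D1:**
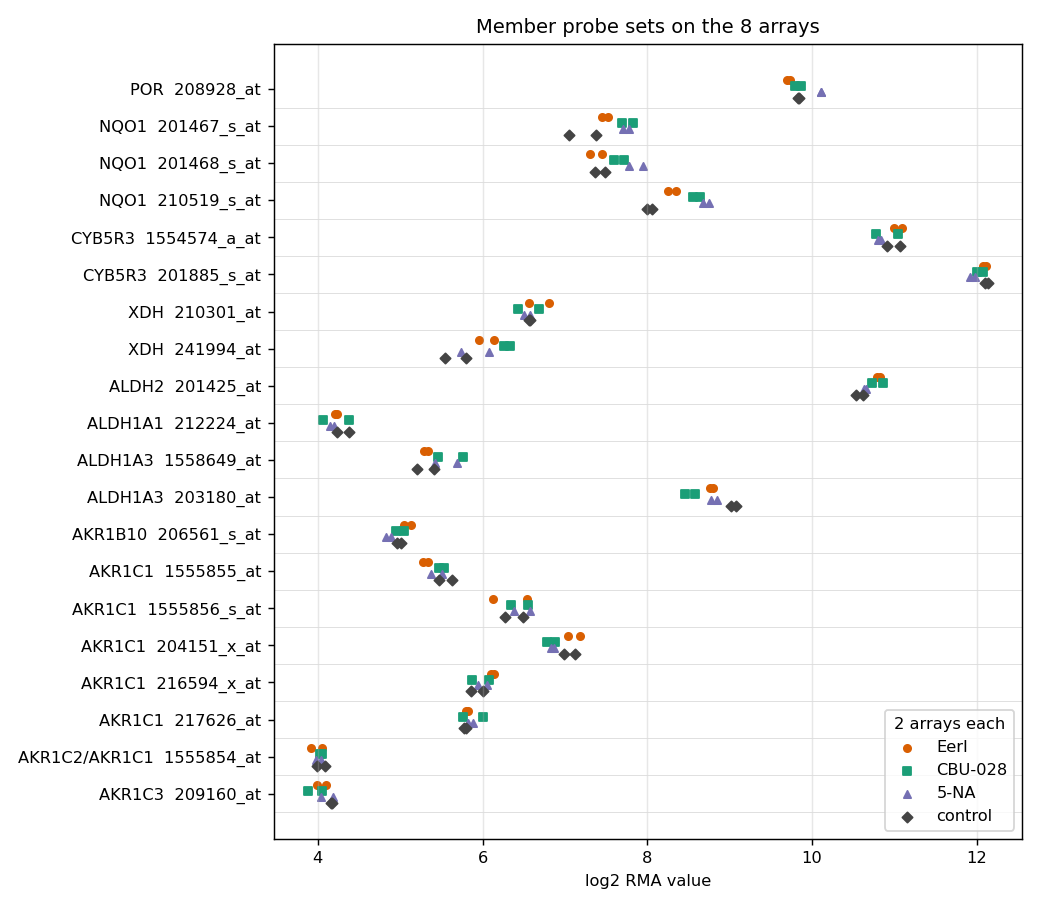
Log2 signal (horizontal axis) of each member probe set on the 8 arrays, with 1 point per array, coloured by EerI, CBU-028, 5-NA and control cells. The CYB5R3, ALDH2 and POR probe sets have group means of 9.72 to 12.1, while those of ALDH1A1, AKR1C3 and the one shared by AKR1C1 and AKR1C2 have group means of 3.96 to 4.30.

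NQO1, the quinone reductase that transfers hydride from NAD(P)H, was the member with the most probe sets that passed. On its brightest probe set, 210519_s_at, the log2 values were 8.25 and 8.35 with EerI, 8.64 and 8.56 with CBU-028 and 8.74 and 8.67 with 5-NA, against 8.05 and 7.99 in control cells. Every treated array lay above both control arrays. NQO1 rose by 0.58 with CBU-028 (SE 0.0828, 95% interval 0.39 to 0.76, limma adjusted p = 0.0034, 1.49-fold). NQO1 rose by 0.69 with 5-NA (95% interval 0.50 to 0.87, limma adjusted p = 0.00111, 1.61-fold). With EerI the difference was 0.28 (95% interval 0.09 to 0.46), which did not pass (limma adjusted p = 0.263). Because RNA came from whole cultures, more RNA per cell and a larger share of cells with the RNA cannot be told apart.

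The order of NQO1 on this probe set was thus 5-NA, CBU-028, EerI and control. No neighbours in that order passed limma's test over all probe sets. The 5-NA cells were 0.11 above the CBU-028 cells (95% interval -0.08 to 0.29, limma adjusted p = 0.503), and the CBU-028 cells were 0.30 above the EerI cells (95% interval 0.12 to 0.49, limma adjusted p = 0.0934). The difference of CBU-028 from EerI passed with probe sets under a mean log2 value of 7 left out (limma adjusted p = 0.0355). With 1 probe set per gene it passed too (limma adjusted p = 0.0476). The 5-NA cells were 0.41 above the EerI cells (95% interval 0.22 to 0.60, limma adjusted p = 0.0117). That difference did not pass without EerI replicate 1 (0.36, limma adjusted p = 0.111) or without 5-NA replicate 1 (0.37, limma adjusted p = 0.0659). The rises against control passed in all 18 alternatives for this probe set that kept no fold threshold, with log2 changes of 0.54 to 0.62 for CBU-028 and 0.65 to 0.72 for 5-NA. Leaving out 5-NA replicate 2, the array with the larger 3' minus 5' difference, gave 0.72.

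The other NQO1 probe sets were dimmer and agreed only in part. Probe set 201467_s_at had 7.45 and 7.52 with EerI, 7.83 and 7.69 with CBU-028 and 7.78 and 7.71 with 5-NA, against 7.37 and 7.05 in control cells. It rose by 0.55 with CBU-028 (limma adjusted p = 0.0174) and by 0.53 with 5-NA (limma adjusted p = 0.0133). The spread between the control arrays was wide here, and without control replicate 2 the changes were 0.39 (limma adjusted p = 0.134) and 0.37 (limma adjusted p = 0.11). The CBU-028 call was also lost without CBU-028 replicate 1 (0.48, limma adjusted p = 0.0634), and the 5-NA call without 5-NA replicate 1 (0.50, limma adjusted p = 0.0841) or 5-NA replicate 2 (0.57, limma adjusted p = 0.0581). Fitting only the groups compared also lost the CBU-028 call of NQO1 201467_s_at (limma adjusted p = 0.0875).

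Probe set 201468_s_at of NQO1 had 7.30 and 7.45 with EerI, 7.60 and 7.72 with CBU-028 and 7.78 and 7.94 with 5-NA, against 7.37 and 7.48 in control cells. Here the EerI arrays overlapped the control arrays and the CBU-028 and 5-NA arrays lay above them. It rose by 0.43 with 5-NA (95% interval 0.21 to 0.65, limma adjusted p = 0.0172), while the difference with CBU-028 was 0.23 (limma adjusted p = 0.195) and that with EerI was -0.05 (limma adjusted p = 0.942). The 5-NA call was lost without 5-NA replicate 2 (0.35, limma adjusted p = 0.11), control replicate 1 (0.38, limma adjusted p = 0.139) or control replicate 2 (0.49, limma adjusted p = 0.0641). The 5-NA cells were 0.49 above the EerI cells (limma adjusted p = 0.0113), a call lost without EerI replicate 1 (0.41, limma adjusted p = 0.108) or 5-NA replicate 2 (0.40, limma adjusted p = 0.0808). So all 3 probe sets of NQO1 passed with 5-NA, 2 passed with CBU-028 and 0 passed with EerI, although with EerI 2 of them had an unadjusted p under 0.05 by limma and 1 by the ANOVA. By the methods' ANOVA with an adjusted p, only 210519_s_at passed with either compound: 201467_s_at had an adjusted p of 0.122 with CBU-028 and 0.1 with 5-NA, and 201468_s_at had 0.0852 with 5-NA and 0.0719 for 5-NA against EerI.

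**Figure D2:**
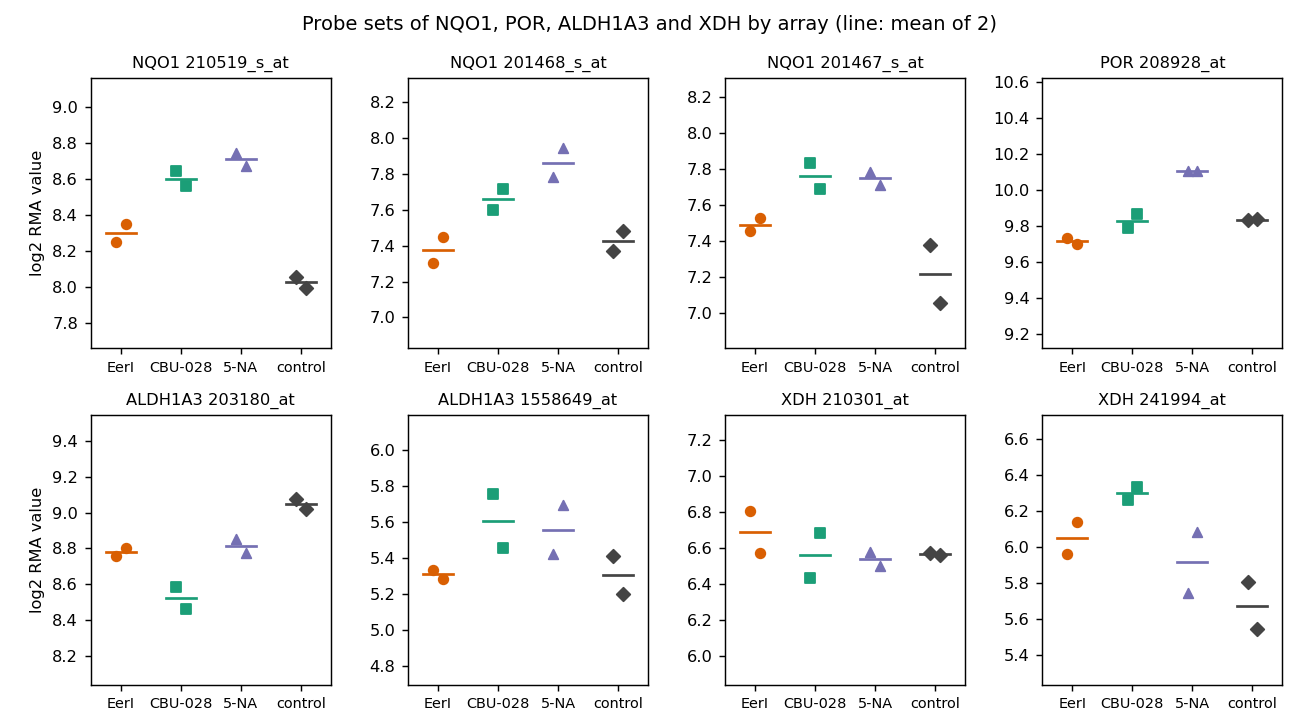
Log2 signal (vertical axis) of single arrays for the probe sets of NQO1, POR, ALDH1A3 and XDH, grouped as EerI, CBU-028, 5-NA and control, with a line at each group's mean of 2 arrays; the axes do not start at 0. The 3 treated groups of NQO1 210519_s_at all lie above control cells, and the CBU-028 arrays of ALDH1A3 203180_at lie lowest of the 4 groups.

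The promoters of NQO1, ALDH1A3 and XDH, members with a called change, are shown because NRF2 and AHR bind short motifs and NQO1 is a known target of both. They run from 250 bases before to 50 bases after the RefSeq start in GRCh38.p14, and a promoter was found for 7 of the 10 members, all but POR, ALDH2 and AKR1B10. The antioxidant response element core TGACNNNGC, searched on both strands, occurred in 13.3% of all 35116 promoters of this length and in 1 of the 7. The AHR core GCGTG, also searched on both strands, occurred in 36.5% of them and in 2 of the 7. The motifs differ in their letters and no matches of the pair overlapped in the members. In the NQO1 promoter, chr16:69726511-69726810 on the minus strand, the capitals mark the AHR core on the reverse strand at +2 to +6 from the start.
NQO1: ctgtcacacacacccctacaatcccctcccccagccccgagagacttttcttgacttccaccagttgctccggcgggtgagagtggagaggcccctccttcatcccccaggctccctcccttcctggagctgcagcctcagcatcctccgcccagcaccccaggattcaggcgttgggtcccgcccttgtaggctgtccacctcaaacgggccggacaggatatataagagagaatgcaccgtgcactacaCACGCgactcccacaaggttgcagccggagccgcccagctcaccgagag
In the ALDH1A3 promoter, chr15:100879581-100879880 on the plus strand, the capitals mark the AHR core at -197 to -193 on the reverse strand and at -43 to -39 on the forward strand.
ALDH1A3: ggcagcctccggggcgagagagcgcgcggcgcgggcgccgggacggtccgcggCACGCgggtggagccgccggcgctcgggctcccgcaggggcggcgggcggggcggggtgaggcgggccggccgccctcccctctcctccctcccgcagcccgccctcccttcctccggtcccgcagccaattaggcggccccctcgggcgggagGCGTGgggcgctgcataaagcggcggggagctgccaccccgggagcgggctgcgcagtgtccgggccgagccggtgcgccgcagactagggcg
In the XDH promoter, chr2:31414693-31414992 on the minus strand, the capitals mark the antioxidant response element core on the reverse strand at -217 to -209.
XDH: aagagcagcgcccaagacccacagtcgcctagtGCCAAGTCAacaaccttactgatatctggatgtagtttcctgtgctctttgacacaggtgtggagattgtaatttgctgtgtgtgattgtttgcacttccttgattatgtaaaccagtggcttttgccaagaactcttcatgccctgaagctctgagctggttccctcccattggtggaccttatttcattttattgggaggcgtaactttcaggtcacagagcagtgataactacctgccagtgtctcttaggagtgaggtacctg
These matches are descriptions of letters in a window. The NQO1 window held no TGACNNNGC, which says only that these letters are not in this stretch.

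POR, the reductase that passes electrons from NADPH to microsomal cytochromes P450, differed between the compounds. Its probe set 208928_at had 9.73 and 9.70 with EerI, 9.79 and 9.87 with CBU-028 and 10.11 and 10.11 with 5-NA, against 9.83 and 9.84 in control cells. The 5-NA arrays stood above all others, the EerI arrays stood below the control arrays, and the CBU-028 arrays lay on either side of them. POR rose by 0.27 with 5-NA (SE 0.0761, 95% interval 0.10 to 0.44, limma adjusted p = 0.0439, 1.21-fold). The differences with EerI (-0.12, limma adjusted p = 0.716) and CBU-028 (-0.01, limma adjusted p = 0.971) did not pass. The 5-NA call stood close to the threshold. Without EerI replicate 1 or EerI replicate 2 the change was 0.27 with a limma adjusted p of 0.0821. Without 5-NA replicate 1 or 2 it was 0.27 each time (limma adjusted p = 0.124 and 0.131), and without control replicate 1 or 2 it was 0.27 each time (limma adjusted p = 0.211 and 0.196). The call was thus lost each time, while the size of the change could hardly move. No EerI array enters it, and the duplicates of 5-NA and of control lay close together. With the replicate number as a block, limma gave an adjusted p of 0.0642 for POR.

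Set directly against each other, the 5-NA cells had 0.39 more POR signal than the EerI cells (95% interval 0.22 to 0.56, limma adjusted p = 0.0102, 1.31-fold). Without EerI replicate 1 the difference was 0.40 (limma adjusted p = 0.0705), and without EerI replicate 2 it was 0.37 (limma adjusted p = 0.0822). The difference of 5-NA from CBU-028 in POR, 0.28, had an interval of 0.10 to 0.45 and missed the threshold (limma adjusted p = 0.0507). With all arrays kept, it passed when probe sets under a mean log2 value of 5 or 7 were left out (limma adjusted p = 0.0377 and 0.0147). It also passed with 1 probe set per gene (limma adjusted p = 0.0215), a trend in the prior variance (limma adjusted p = 0.0179) and the methods' ANOVA (adjusted p = 0.033). The other alternatives on all arrays did not give a pass. Without CBU-028 replicate 2 the difference in POR was 0.32.

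CYB5R3, the NADH-dependent reductase of cytochrome b5, was bright and steady. Probe set 201885_s_at had 12.12 and 12.08 with EerI, 12.00 and 12.08 with CBU-028 and 11.92 and 11.98 with 5-NA, against 12.14 and 12.10 in control cells. The 5-NA arrays of CYB5R3 lay below the control arrays, with a difference of -0.17 that did not pass (95% interval -0.35 to 0.00, limma adjusted p = 0.19), but did with a trend in the prior variance (limma adjusted p = 0.0457). Its other probe set, 1554574_a_at, had a difference of the same size with 5-NA (-0.17, limma adjusted p = 0.359). With EerI and CBU-028 the differences of CYB5R3 lay between -0.08 and 0.05.

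XDH, the xanthine dehydrogenase that ends purine breakdown, gave different answers on its probe sets. Probe set 241994_at had 5.96 and 6.13 with EerI, 6.26 and 6.33 with CBU-028 and 5.74 and 6.08 with 5-NA, against 5.80 and 5.54 in control cells. The EerI and CBU-028 arrays lay above both control arrays, while the 5-NA arrays overlapped them. This XDH probe set rose by 0.63 with CBU-028 (SE 0.132, 95% interval 0.33 to 0.92, limma adjusted p = 0.0191, 1.54-fold), and the differences with EerI (0.38, limma adjusted p = 0.364) and 5-NA (0.24, limma adjusted p = 0.287) did not pass. Without control replicate 2 the change with CBU-028 was 0.49 and did not pass (limma adjusted p = 0.15). The probe set is dim: 27.8% of all probe sets had a lower value in control cells. The brighter XDH probe set 210301_at had 6.80 and 6.57 with EerI, 6.43 and 6.68 with CBU-028 and 6.58 and 6.50 with 5-NA, against 6.57 and 6.56 in control cells. In each treated group the arrays lay on either side of a control array, and its difference with CBU-028 was -0.01 (95% interval -0.26 to 0.24). For 210301_at, 43.6% of all probe sets had a lower value in control cells. Both XDH probe sets had group means within the range of the B-cell marker means, 4.63 to 7.73.

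ALDH1A3, which oxidizes retinaldehyde to retinoic acid, was the member that fell. Probe set 203180_at had 8.76 and 8.80 with EerI, 8.58 and 8.46 with CBU-028 and 8.85 and 8.78 with 5-NA, against 9.08 and 9.02 in control cells. Every treated array lay below both control arrays. ALDH1A3 fell by 0.52 with CBU-028 (SE 0.0824, 95% interval -0.71 to -0.34, limma adjusted p = 0.00515, 1.44-fold lower). The differences with EerI (-0.27, 95% interval -0.45 to -0.08, limma adjusted p = 0.285) and 5-NA (-0.23, 95% interval -0.42 to -0.05, limma adjusted p = 0.0956) did not pass, although with probe sets under a mean log2 value of 7 left out the difference with 5-NA did (limma adjusted p = 0.0354). Between the compounds, the CBU-028 cells were 0.26 below the EerI cells (limma adjusted p = 0.138), and the 5-NA cells were 0.29 above the CBU-028 cells (limma adjusted p = 0.0563). The CBU-028 call of ALDH1A3 was lost without control replicate 1 (-0.50). With all arrays kept, 5-NA differed from CBU-028 when probe sets under a mean log2 value of 5 or 7 were left out (limma adjusted p = 0.0435 and 0.0194). It also did with 1 probe set per gene (limma adjusted p = 0.0263), a trend in the prior variance (limma adjusted p = 0.0355) and renewed quantile normalization (limma adjusted p = 0.0442). The other alternatives on all arrays did not give a pass. Without CBU-028 replicate 1 the difference of 5-NA from CBU-028 was 0.35. The dim probe set 1558649_at of ALDH1A3 ran the other way, with differences of 0.00 with EerI, 0.30 with CBU-028 and 0.25 with 5-NA, none of which passed (limma adjusted p = 0.205 for CBU-028, the lowest of the 3). The fall thus rests on 1 of the 2 probe sets.

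ALDH2 (201425_at), the mitochondrial enzyme that clears acetaldehyde, had 10.79 and 10.82 with EerI, 10.86 and 10.73 with CBU-028 and 10.63 and 10.65 with 5-NA, against 10.54 and 10.62 in control cells. All treated arrays lay above both control arrays, by little. The ALDH2 differences were 0.23 with EerI (95% interval 0.05 to 0.42, limma adjusted p = 0.371), 0.22 with CBU-028 (95% interval 0.03 to 0.40, limma adjusted p = 0.15) and 0.06 with 5-NA (95% interval -0.12 to 0.25, limma adjusted p = 0.705), and none passed. ALDH1A1 (212224_at), a cytosolic retinaldehyde dehydrogenase, had 4.20 and 4.23 with EerI, 4.06 and 4.38 with CBU-028 and 4.20 and 4.15 with 5-NA, against 4.23 and 4.37 in control cells. These values lie below the lowest mean of the B-cell markers, the files carry no detection calls, and no difference of ALDH1A1 passed.

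**Figure D3:**
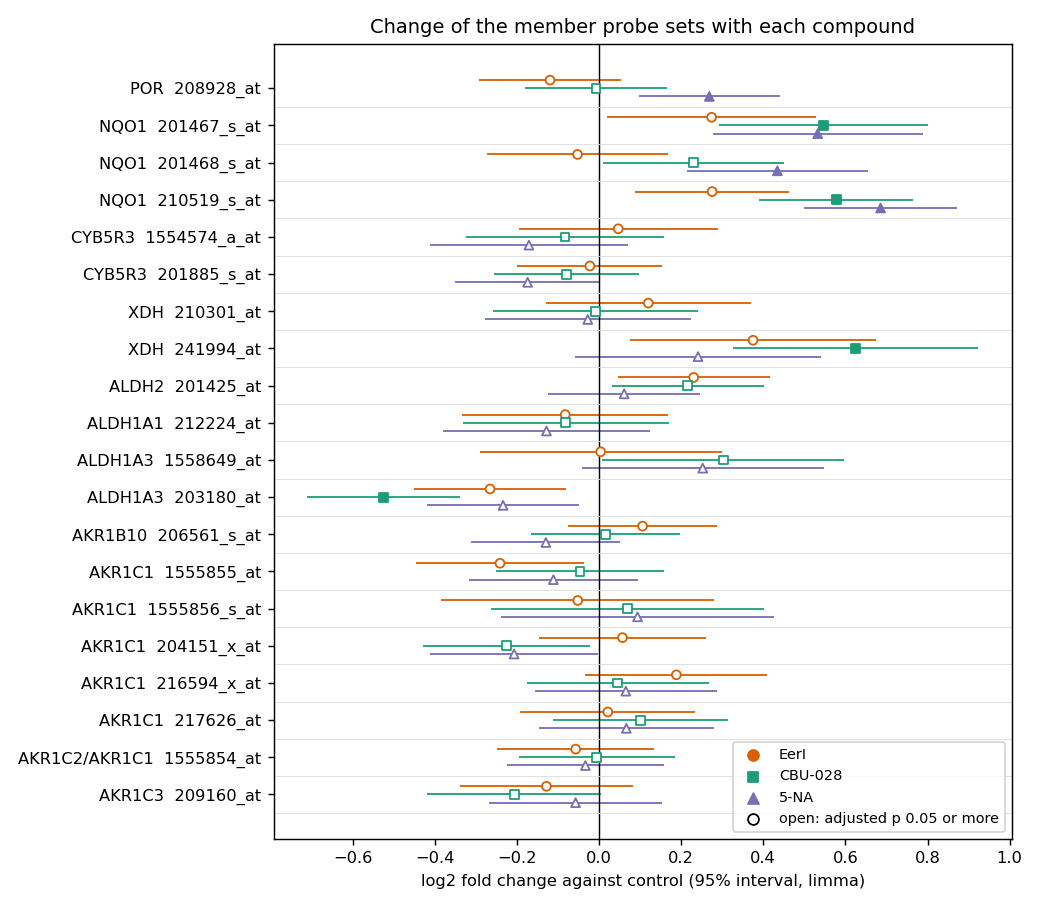
Log2 change against control of every member probe set with EerI, CBU-028 and 5-NA, as points with 95% intervals from limma, filled where the adjusted p was under 0.05. The filled points are NQO1 and POR with 5-NA and NQO1, XDH and ALDH1A3 with CBU-028.

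None of the 8 aldo-keto reductase probe sets passed in any comparison with control cells by limma's adjusted p, while 1 with each compound had an unadjusted p under 0.05 (by the ANOVA, 1 with EerI, 1 with CBU-028 and 0 with 5-NA). AKR1B10 (206561_s_at), which reduces aldehydes including unsaturated ones, had 5.13 and 5.05 with EerI, 4.95 and 5.04 with CBU-028 and 4.88 and 4.82 with 5-NA, against 5.00 and 4.96 in control cells. Its EerI arrays lay above and its 5-NA arrays below the control arrays, and the 5-NA cells were 0.24 below the EerI cells, a difference that did not pass (95% interval -0.42 to -0.05, limma adjusted p = 0.0897) but did with 1 probe set per gene (limma adjusted p = 0.0463). AKR1C3 (209160_at), which reduces steroid and prostaglandin ketones, had 3.98 and 4.10 with EerI, 3.88 and 4.05 with CBU-028 and 4.04 and 4.18 with 5-NA, against 4.17 and 4.16 in control cells, a level at which 8.8% of all probe sets were lower in control cells.

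AKR1C1, a hydroxysteroid dehydrogenase of the same family, had 5 probe sets of its own, and their group means lay between 5.31 and 7.11. That is within the range of the B-cell marker means, 4.63 to 7.73. The brightest, 204151_x_at, had 7.19 and 7.04 with EerI, 6.79 and 6.88 with CBU-028 and 6.83 and 6.87 with 5-NA, against 7.12 and 6.99 in control cells. The CBU-028 and 5-NA arrays lay below the control arrays, with differences of -0.23 (limma adjusted p = 0.171) and -0.21 (limma adjusted p = 0.176) that did not pass. The other 4, 1555855_at, 1555856_s_at, 216594_x_at and 217626_at, gave differences of -0.24 to 0.19 with EerI, -0.05 to 0.10 with CBU-028 and -0.11 to 0.09 with 5-NA, so the probe sets of AKR1C1 did not run 1 way. The probe sets ending in _x_at may also bind RNA of near-identical family members, and the probe set annotated to both AKR1C2 and AKR1C1, 1555854_at, stayed between 3.92 and 4.09 on all 8 arrays.

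Compound against compound at the matched dose and time, 3 of 20 member probe sets differed between 5-NA and EerI (14.0% of all probe sets did), all higher with 5-NA, where 6.93% of all were higher: POR and 2 of NQO1. Between CBU-028 and EerI, 0 of 20 passed limma's test (2.95% of all did), with 6 at an unadjusted p under 0.05 and 5 by the ANOVA. Between 5-NA and CBU-028, 0 of 20 passed (10.6% of all did), with 3 at an unadjusted p under 0.05 and 4 by the ANOVA. The widest difference between 5-NA and CBU-028 was that of XDH 241994_at, -0.38 (95% interval -0.68 to -0.09, limma adjusted p = 0.106). These 3 comparisons and the 3 against control share arrays, so they are not independent of each other.

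The relatives of the members were followed at their brightest probe set per gene, in lists that share some genes (TXNRD1, DHRS3 and NFE2L2 are among those that stand in more than 1). Where a list had 0 genes past limma's adjusted p, its counts at an unadjusted p under 0.05 are given by limma and then by the ANOVA. Over all 19775 genes, 0.506% rose and 0.263% fell with EerI, 5.49% rose and 7.10% fell with CBU-028, and 7.87% rose and 10.9% fell with 5-NA. Of 10 further flavin reductases with a probe set, 0 passed with EerI (3 and 3 unadjusted), 4 rose with CBU-028 and 3 rose with 5-NA. TXNRD1, the cytosolic thioredoxin reductase, had changes of 0.40 with EerI (limma adjusted p = 0.0658), 0.59 with CBU-028 (limma adjusted p = 0.00196) and 0.81 with 5-NA (limma adjusted p = 0.000372). AIFM2, which keeps ubiquinone reduced, rose by 0.51 with CBU-028 and by 0.40 with 5-NA, and MTRR, a relative of POR that reactivates methionine synthase, rose by 0.38 with CBU-028 and by 0.31 with 5-NA. CYB5R1, a paralog of CYB5R3, rose by 0.54 with CBU-028 and had a difference of 0.14 with 5-NA (limma adjusted p = 0.373). These counts depended on single arrays: that of CBU-028 was 1 without control replicate 1 or control replicate 2, and that of 5-NA was 1 without either 5-NA array or either control array.

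Among 7 genes of the molybdenum enzymes and their cofactor, to which XDH belongs, 0 passed with EerI (2 and 3 unadjusted), 1 rose and 1 fell with CBU-028, and 3 fell with 5-NA. SUOX, the sulfite oxidase, fell by 0.94 with CBU-028 and fell by 0.74 with 5-NA. The cofactor genes GPHN and MOCS2 fell by 0.57 (GPHN) and fell by 0.54 (MOCS2) with 5-NA, and MOCOS, which adds the sulfur that XDH needs, rose by 0.47 with CBU-028. The rise of MOCOS was lost without control replicate 1 or control replicate 2, and the falls with 5-NA numbered 2 without 5-NA replicate 2 or either control array.

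Of 16 further aldehyde dehydrogenases, 1 rose with EerI, 2 rose and 1 fell with CBU-028, and 1 rose and 2 fell with 5-NA. ALDH8A1, a dehydrogenase of the kynurenine pathway, had 5.78 and 6.13 with EerI, 6.43 and 6.68 with CBU-028 and 7.78 and 7.45 with 5-NA, against 6.04 and 5.96 in control cells. Its rise with 5-NA was 1.61 (SE 0.148, limma adjusted p = 0.000356), larger than any change of a member, and that with CBU-028 was 0.56 (limma adjusted p = 0.0476). ALDH1L2, the mitochondrial formyltetrahydrofolate dehydrogenase, ran in the opposite order, rising by 1.34 with EerI (limma adjusted p = 0.00808) and by 0.94 with CBU-028 (limma adjusted p = 0.00689), with a difference of 0.26 with 5-NA (limma adjusted p = 0.332). The 5-NA cells differed from the EerI cells by 1.66 for ALDH8A1 and by -1.08 for ALDH1L2 (limma adjusted p = 0.000406 and 0.00287). ALDH1B1, the mitochondrial paralog of ALDH2, fell by 0.60 with CBU-028 and fell by 0.71 with 5-NA, and ALDH5A1, the succinate semialdehyde dehydrogenase, fell by 0.37 with 5-NA. Without control replicate 1 the counts were 0 for EerI, 0 rises for CBU-028 and 0 falls for both CBU-028 and 5-NA. The rise with EerI was also lost without EerI replicate 2, and the fall with CBU-028 also without control replicate 2.

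Of 6 further aldo-keto reductases with a probe set, 0 passed with any compound, and unadjusted only CBU-028 had any (1 and 0). Among 13 other carbonyl, alkenal and alcohol enzymes, 0 passed with EerI (4 and 3 unadjusted), 3 fell with CBU-028, and 1 rose and 3 fell with 5-NA. PTGR2, a reductase of unsaturated ketones, fell by 0.73 with CBU-028 and fell by 1.01 with 5-NA, and CBR4, a mitochondrial quinone and carbonyl reductase, fell by 0.44 with 5-NA. The falls with 5-NA numbered 1 without either control array, and the rise with 5-NA was lost without either EerI array, 5-NA replicate 2 or either control array. Of 13 glutathione S-transferases, which conjugate electrophiles, 0 passed with EerI (0 and 3 unadjusted), 0 passed with CBU-028 (2 and 5 unadjusted) and 3 fell with 5-NA: GSTZ1 fell by 0.52, GSTK1 fell by 0.50 and GSTA4 fell by 0.33.

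ALDH1A3 makes retinoic acid, and genes that retinoic acid controls were followed as a list. Whether the fall of ALDH1A3 had a part in their changes was not tested. ALDH1A2, a further retinaldehyde dehydrogenase, had a mean of 10.94 over the arrays. Its differences of -0.16 with EerI, -0.19 with CBU-028 and 0.26 with 5-NA did not pass (limma adjusted p = 0.666, 0.256 and 0.0948). It was higher with 5-NA than with EerI (0.42, limma adjusted p = 0.0164) or CBU-028 (0.46, limma adjusted p = 0.0153). Of 7 retinoic acid targets with a probe set, 1 fell with EerI, 4 fell with CBU-028, and 1 rose and 3 fell with 5-NA. CYP26A1, the retinoic acid hydroxylase, had 8.44 and 8.65 with EerI, 7.92 and 7.97 with CBU-028 and 8.88 and 8.99 with 5-NA, against 9.35 and 9.38 in control cells. It fell by 0.82 with EerI (limma adjusted p = 0.00678), fell by 1.42 with CBU-028 (limma adjusted p = 9.35e-05) and fell by 0.43 with 5-NA (limma adjusted p = 0.015), with the CBU-028 cells lowest. The CBU-028 cells were also lowest at ALDH1A3 203180_at, but not at its other probe set. At 203180_at their differences from EerI and 5-NA did not pass over all probe sets (limma adjusted p = 0.138 and 0.0563). DHRS3, the retinaldehyde reductase, fell by 0.90 with CBU-028 and fell by 0.33 with 5-NA. RDH10, which makes retinaldehyde from retinol and is not among the 7 targets, fell by 0.67 with CBU-028. RARB, a retinoic acid receptor, fell by 0.74 with CBU-028 and fell by 0.69 with 5-NA. CRABP2, a carrier of retinoic acid, fell by 0.41 with CBU-028 and rose by 0.39 with 5-NA. The falls with 5-NA numbered 1 without 5-NA replicate 1 or either control array, those with CBU-028 numbered 3 without either control array or either EerI array, and the fall with EerI was lost without EerI replicate 1 or either control array. The rise of CRABP2 with 5-NA was lost without either 5-NA array or either control array.

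Of 16 other NRF2 targets with a probe set, 3 rose with EerI, 8 rose with CBU-028, 8 rose with 5-NA and 0 fell, with median log2 changes of 0.15 with EerI, 0.29 with CBU-028 and 0.30 with 5-NA, where the medians over all genes were 0.00, -0.01 and -0.03. HMOX1, heme oxygenase, had 12.77 and 12.78 with EerI, 13.68 and 13.47 with CBU-028 and 13.07 and 13.01 with 5-NA, against 9.82 and 9.86 in control cells. SLC7A11, the cystine transporter, rose by 2.90 with EerI, by 2.89 with CBU-028 and by 2.04 with 5-NA. GCLM, a subunit of the glutathione-making ligase, rose by 0.82 with EerI (limma adjusted p = 0.00279), by 1.36 with CBU-028 and by 1.48 with 5-NA. With EerI, only HMOX1, SLC7A11 and GCLM of this list passed. Which transcription factor acted on the listed genes was not tested. The order of GCLM and TXNRD1 over the compounds was that of NQO1, whereas HMOX1 was highest with CBU-028 and SLC7A11 was lower with 5-NA than with EerI by 0.86 (limma adjusted p = 0.000463). With 1 array left out the counts were 2 to 4 for EerI, 4 to 7 for CBU-028 and 7 to 8 for 5-NA, the lowest for CBU-028 without control replicate 2.

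**Figure D4:**
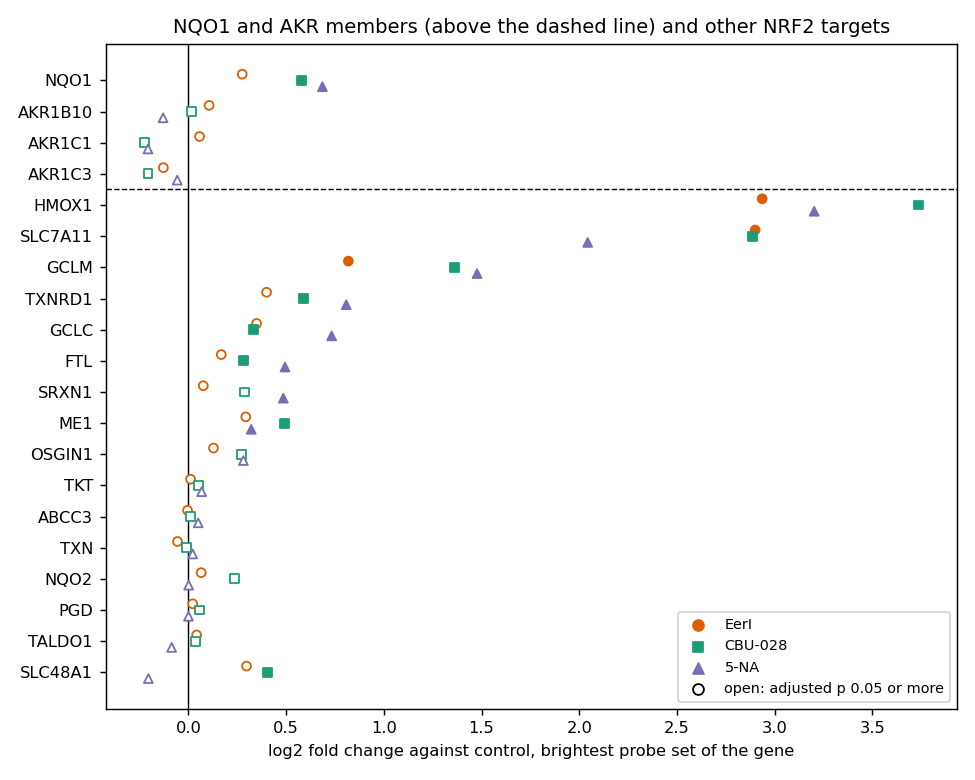
Log2 change against control (horizontal axis) of NQO1 and the aldo-keto reductase members, above the dashed line, and of other NRF2 targets with EerI, CBU-028 and 5-NA, each at the gene's brightest probe set, filled where limma's adjusted p was under 0.05. HMOX1 and SLC7A11 lie at 2.04 to 3.74 with every compound, while NQO1 lies at 0.28 to 0.69.

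Of 7 transcription factors and partners that act on the inducible members, 0 passed with EerI (3 and 3 unadjusted), 2 rose with CBU-028 and 5 rose with 5-NA. MAFG, a small MAF protein that pairs with NRF2, had changes of 0.54 with EerI (limma adjusted p = 0.0644), 1.01 with CBU-028 (limma adjusted p = 0.000712) and 1.68 with 5-NA (limma adjusted p = 6.16e-05). NFE2L2, which encodes NRF2, rose by 0.46 with CBU-028 and by 0.75 with 5-NA. BACH1, a repressor at the same sites, rose by 0.63 with 5-NA, and AHR rose by 0.68 with 5-NA. The CBU-028 count was 1 without either control array, and the 5-NA count was 4 without control replicate 1. Of 7 AHR targets other than the members, 0 passed with EerI (2 and 2 unadjusted), 1 rose and 1 fell with CBU-028, and 3 rose and 1 fell with 5-NA. NFE2L2, already counted among the transcription factors, was the 1 rise with CBU-028 and among the 3 with 5-NA. CYP1B1 fell by 1.06 with CBU-028 and fell by 0.73 with 5-NA, whereas TIPARP and CYP1A1 rose by 0.43 and by 0.45 with 5-NA, so the AHR targets did not move 1 way.

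The genes nearest to the members with the widest range of group means were found by the root mean square difference of the 3 log2 changes over 19774 other genes. Nearest to NQO1 210519_s_at was NAXD, with changes of 0.28 with EerI, 0.59 with CBU-028 and 0.65 with 5-NA and a difference of 0.0211, followed by LARP1B at 0.0341 and BUD31 at 0.0366. Nearest to XDH 241994_at was SNHG33 at 0.0264, followed by POLR1E at 0.0271 and FSD1L at 0.0413. With 3 changes measured on shared control arrays, such likeness is a description of these values.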

How the data were processed

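The 8 Affymetrix arrays held RNA of 293T cells, 2 arrays for each of EerI, CBU-028, 5-NA and control. The authors deposited log2 signals made with RMA, and the submitters' processing notes also name Partek, without versions. The probe set identifiers belong to the HG-U133 Plus 2.0 design, while another design is named in the methods. Array signals have no read depth, and the number of arrays limits the precision.

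Probe sets were named from the platform annotation, with symbols updated through gene identifiers: 41097 had 1 symbol, 1801 several and 11777 none. The fit of group means used all 8 arrays and limma 3.58.1 in R 4.3.3 (4 residual and 5.08 prior degrees of freedom), and each compound was tested against control and each other compound, 6 comparisons in all. Within a comparison, the Benjamini-Hochberg adjustment ran over all 54675 probe sets, and a change was called at an adjusted p under 0.05, two-sided. Genes in lists were represented by their probe set with the highest mean. All member probe sets are named, with at most 4 genes per list, those with the smallest adjusted p against control, and the 3 genes nearest in log2 change to each of the 2 member probe sets with the widest range of group means. ALDH1A2 was named besides, as a relative of ALDH1A3. The members and lists were chosen with earlier results of these data known. Promoters came from RefSeq (GRCh38.p14). The fit was first tested on simulated data in which the changed probe sets were known. Alternatives were the methods' ANOVA, fold thresholds of 1.5 and 2, dim probe sets left out below a mean log2 value of 5 or 7, no _x_at probe sets, the brightest probe set of each gene alone, median centring, quantile normalization repeated, a replicate block, a fit of the compared groups only, a trend in the prior variance, and leaving out each array. List counts with each array left out were added after seeing the data. Python 3.11.15 with matplotlib 3.10.9 drew the figures.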

Additional observations from a re-analysis of the deposited data

Results flagged for a closer look

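Between the compounds, 3 member values differed by limma's direct test of 5-NA against EerI. POR (208928_at) was higher by 0.388 on the log2 scale, NQO1 (201468_s_at) by 0.487 and NQO1 (210519_s_at) by 0.410, and each call was lost without EerI replicate 1 or another single array. Groups of 2 arrays are too small to test for outlying arrays.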

How the results depend on the processing

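No called member value changed sign under any alternative, and among 2110 values that passed under neither setting 63 changed sign. Passing member probe sets numbered 4 with CBU-028, 4 with 5-NA, 3 for 5-NA against EerI, and 0 for EerI, CBU-028 against EerI and 5-NA against CBU-028. A 2-fold threshold, with limma or with the methods' ANOVA at an unadjusted p, left 0 in each, and a 1.5-fold threshold left 1 with CBU-028, 1 with 5-NA and 0 for 5-NA against EerI. The ANOVA with an adjusted p gave 2 with CBU-028, 2 with 5-NA and 1 for 5-NA against CBU-028. With 1 probe set per gene, fewer probe sets were tested and the counts were 2 with CBU-028, 2 with 5-NA, 1 for CBU-028 against EerI, 2 for 5-NA against CBU-028 and 3 for 5-NA against EerI, AKR1B10 among them. Floors of 5 and 7 and a trend in the prior variance gave 2 for 5-NA against CBU-028, the floor of 7 and the trend gave 5 with 5-NA by adding a fall (ALDH1A3 203180_at and CYB5R3 201885_s_at, 1 each), the floor of 7 gave 1 for CBU-028 against EerI, and renewed quantile normalization gave 1 for 5-NA against CBU-028. The cause of these shifts was not tested. With 1 array left out, the counts were 2 to 4 with CBU-028 (2 without control replicate 2), 1 to 4 with 5-NA (1 without 5-NA replicate 2 or control replicate 2, and 2 without 5-NA replicate 1 or control replicate 1), 0 to 3 for 5-NA against EerI (0 without EerI replicate 1), 0 to 1 for 5-NA against CBU-028 (1 without either CBU-028 array) and 0 throughout for EerI and for CBU-028 against EerI. Whether the duplicate numbers pair the samples is not known. Correlations of duplicate differences between groups ran from -0.146 to 0.146, and such low values cannot exclude a pairing. With the replicate block POR lost its call with 5-NA, while all other member calls were kept. Over all probe sets the block called 219 with EerI, 4840 with CBU-028 and 7917 with 5-NA, where the test without it called 288, 5285 and 8318. Under the ANOVA with an adjusted p, NQO1 201467_s_at lost its calls with CBU-028 and 5-NA, NQO1 201468_s_at lost its calls with 5-NA and for 5-NA against EerI, and XDH 241994_at lost its call with CBU-028 (limma range of its log2 change over alternatives 0.49 to 0.76). NQO1 201467_s_at also lost its call with CBU-028 when limma was fitted to only the compared groups (adjusted p = 0.0875), and POR lost its call with 5-NA under renewed quantile normalization (adjusted p = 0.059) and median centring (adjusted p = 0.0515).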
